A study of Sus scrofa with 24 samples.

Results

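The interaction of vitamin E and hydroxytyrosol was read in the subcutaneous back fat of Iberian piglets as a single contrast over the whole factorial, (VEHT - HT) - (VE - C), on log2 expression. All 24 RNA-seq libraries of the series entered it, 6 per maternal diet, and 17602 of the 25880 gene identifiers in the count table were tested. The sows of the control group C received 30 mg of added all-rac-α-tocopheryl acetate (vitamin E) per kg of feed, those of group VE 100 mg/kg, those of group HT 30 mg/kg with 1.5 mg/kg of hydroxytyrosol, and those of group VEHT 100 mg/kg with 1.5 mg/kg of hydroxytyrosol. Every diet thus contained vitamin E, and the contents the paper measured in the feeds differed less than these added amounts. The piglets met the supplements only through their mothers, whose diets ran from day 85 of gestation to weaning at 28 days. The paper also lists a weaning diet for the piglets. Each library is 1 male piglet of a different litter, sampled at 33 days of age, 5 days after weaning, so the replicates are separate animals.

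Vitamin E is the main fat-soluble antioxidant of cell membranes, where it stops the chain of lipid peroxidation, and hydroxytyrosol is a water-soluble phenol of olives. Both can act on the same oxidants, and for that reason their joint use is commonly tested in a factorial. Back fat holds adipocytes, which take up, make and store triacylglycerol, beside macrophages, lymphocytes, vessels and a collagenous matrix. A positive contrast means that the step from low to high vitamin E was higher on the log2 scale with hydroxytyrosol than without it, and a negative contrast that it was lower. A contrast of 1 is a 2-fold difference between the 2 vitamin E effects, and values below are given as estimate ± SE.

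Of 193 genes tested from 16 immune lists, 85 had a positive interaction, and most positive genes belonged to none of these lists. The named negative genes included 2 of 17 members of fatty acid synthesis and 2 of 12 of phosphatidylethanolamine and phosphatidylcholine synthesis. At an edgeR q of at most 0.10, 696 genes (3.95% of those tested) had an interaction, 648 positive (3.68%) and 48 negative (0.273%). The positive contrasts ran from 0.661 to 18.9 with a median of 5.24, or 5.12 over the positive genes that were counted in every diet, against 0.0233 for all genes tested. The negative contrasts had a median of -1.98 (-1.77 for those counted in every diet) and reached -8.41. At an unadjusted p of at most 0.05, 2023 genes were positive (11.5%) and 585 negative (3.32%), and DESeq2, the tool of the study, called 1255 genes (7.13%) at the same q, 1121 positive (6.37%) and 134 negative (0.761%), including 629 of the 648 and 36 of the 48.

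**Figure D1:**
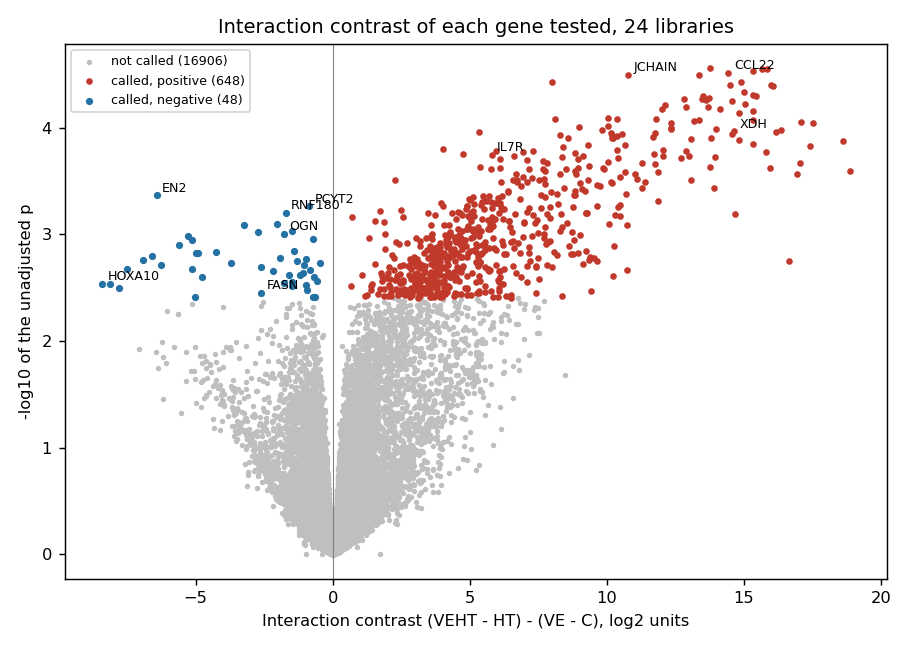
Interaction contrast of each of the 17602 genes tested (horizontal axis, log2 units) against -log10 of its unadjusted edgeR p (vertical axis). The 648 positive genes called extend to 18.9, whereas the 48 negative genes called end at -8.41.

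A group of 3 libraries stood apart, C G041, C G047 and VEHT G141, and the positive side rested on them. In 595 of the 648 positive genes (91.8%) these were the 3 highest libraries of the 24, which was so in 10.9% of all genes tested. Nothing is read from that difference, since 2 high C libraries and 1 high VEHT library push the contrast upwards. Without all 3, edgeR called 0 genes among 17620 tested (smallest q = 0.995), with 662 at an unadjusted p of at most 0.05, DESeq2 called 3, and limma voom with quality weights called 0 even on all 24 libraries (1016 at an unadjusted p of at most 0.05). Without VEHT G141 alone edgeR called 0 genes, without C G041 144, and without C G047 147. Leaving out 1 HT library gave 258 (G008), 187 (G012), 272 (G066), 348 (G121), 383 (G189) or 747 (G196), and 1 VE library 195 (G077), 435 (G085), 336 (G091), 384 (G127), 669 (G179) or 233 (G220), whereas the count rose to 1095 without C G206. All 696 genes kept their sign in each of the 24 fits with 1 library left out, which describes genes chosen on these same libraries and is no test.

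Total gene counts ran from 36614639 to 61919211 per library, and the 3 libraries lay within this range, with TMM factors between 0.807 and 1.16 over all 24. Their makeup differed from the others. The 16 macrophage markers summed to 14700 CPM (gene counts scaled to a common library total of 1000000) in G041, 11500 in G047 and 12800 in G141, against 315 to 2900 in the other 21 libraries, and the 8 plasma cell markers to 1320, 870 and 1280 against 163 to 346. The 10 adipocyte markers summed to 2920, 2770 and 2460 CPM against 5820 to 27800, so the defining genes of fat tissue were present in every library. The 7 skeletal muscle markers ranged from 11.8 to 39300 CPM over the 24 libraries, with 84.6 in G041, 18.1 in G047 and 1250 in G141. With the mean level of the muscle markers as a covariate 0 genes were called (2608 at an unadjusted p of at most 0.05), while the median contrast of the positive genes was 4.68. With the mean level of the macrophage markers as a covariate the median contrast of the positive genes was 0.497 and 0 genes were called (858 at an unadjusted p of at most 0.05), and with that of the adipocyte markers it was 0.451 and 0 genes were called (533). In whole tissue more cells of a type and more RNA per cell cannot be told apart, and neither can the diets and the cell makeup of these 3 libraries.

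CCL22, a chemokine of macrophages and dendritic cells that attracts T helper cells, had the smallest p of the named positive genes. It ran from 0.0906 to 75.2 CPM in C with a median of 0.736, from 0 to 0.272 in VE with a median of 0.133, from 0 to 0.345 in HT with a median of 0.0322, and from 0.147 to 43.2 in VEHT with a median of 0.318. The 2 high C values were G047 and G041 (54.8), the high VEHT value was G141, VEHT G208 followed with 8.13, and the remaining libraries of the diets overlapped. Its contrast was 14.43 ± 2.78 (edgeR q = 0.0362), and 6.30 ± 1.79 without the 3 libraries (unadjusted p = 0.00214, q = 0.995). CCL17, which binds the same receptor and lies 44.4 kb from CCL22 on chromosome 6, had a contrast of 13.01 ± 2.91 (edgeR q = 0.038) but 1.82 ± 2.35 without the 3 libraries. The receptor of both, CCR4, had 8.28 ± 1.92 (edgeR q = 0.0401). Among chemokines 7 of 17 members tested were called, all positive, and among chemokine receptors 8 of 16, with list medians of 4.75 and 4.18 that fell to 0.663 and 0.581 without the 3 libraries. Of all genes tested 3.68% were called positive, which is also the background of the immune list counts that follow.

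The genes of antibody-secreting cells had the highest list median, 7.95, with 6 of 8 members called. JCHAIN, which links the units of secreted IgM and IgA, ran from 2.95 to 814 CPM in C (median 5.94), from 2.27 to 4.74 in VE (3.84), from 2.57 to 8.99 in HT (5.63) and from 3.59 to 694 in VEHT (19.7). High values were G041 and G047 (460) in C and G141 and G208 (104) in VEHT, and VEHT G148 and G162 (15.9 and 23.5 CPM) also lay above every VE and HT piglet. The contrast was 10.76 ± 2.08 (edgeR q = 0.0362) and 3.02 ± 0.888 without the 3 libraries (unadjusted p = 0.00287). IGHM, the heavy chain of IgM, reached 6720 CPM in C and 9750 in VEHT but at most 108 in VE and 97.7 in HT, with a contrast of 10.04 ± 2.09 (edgeR q = 0.0362). MZB1, a chaperone of antibody assembly, and POU2AF1, a coactivator of antibody genes, had contrasts of 10.37 ± 2.16 (edgeR q = 0.0362) and 12.89 ± 2.86 (edgeR q = 0.038). XBP1, a factor of the secretory pathway that many cells also express, read 0.01 ± 0.231 (edgeR q = 0.985), and SDC1, a surface proteoglycan that is not particular to plasma cells, 1.46 ± 0.834 (edgeR q = 0.433). The list median without the 3 libraries was 2.16, with 2 of 8 members at an unadjusted p of at most 0.05.

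Genes of myeloid cells were also among the positive genes. SLAMF8, a surface receptor of macrophages, reached 83.1 CPM in C and 48.5 in VEHT, against at most 0.293 in VE and 0.866 in HT, and had a contrast of 11.80 ± 2.46 (edgeR q = 0.0362). ARG1, the arginase that competes with nitric oxide synthase for arginine, ran from 0.252 to 205 CPM in C (median 0.57), from 0.151 to 1.42 in VE (0.515), from 0.164 to 1.01 in HT (0.677) and from 0.21 to 113 in VEHT (0.70), so that its diet medians lay close together while its contrast was 12.35 ± 2.62 (edgeR q = 0.0362). Its contrast of diet medians was 0.37. HK3, a hexokinase of leukocytes (8.29 ± 1.79), MMP25, a membrane metalloproteinase of neutrophils (8.09 ± 1.69), and HPSE, the heparanase that cuts heparan sulphate (10.04 ± 2.13), all had an edgeR q of 0.0362. Of the macrophage list 10 of 16 members were called, with LYZ, the lysozyme, at 7.10 ± 1.60 (edgeR q = 0.038), MARCO, a scavenger receptor, at 6.41 ± 1.65 (edgeR q = 0.0564), and ITGAM, an integrin chain, at 3.57 ± 0.925 (edgeR q = 0.0576). Of the neutrophil list 4 of 7 were called, among them CSF3R, the receptor of granulocyte colony-stimulating factor (8.57 ± 1.85, edgeR q = 0.0362), and of the dendritic cell list 7 of 9, among them FLT3 (6.94 ± 1.54, edgeR q = 0.038), a receptor of their precursors. CXCL8, which attracts neutrophils, reached 151 CPM in C and 88.2 in VEHT, against at most 1.49 in VE and 3.58 in HT (10.23 ± 2.22, edgeR q = 0.0362).

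**Figure D2:**
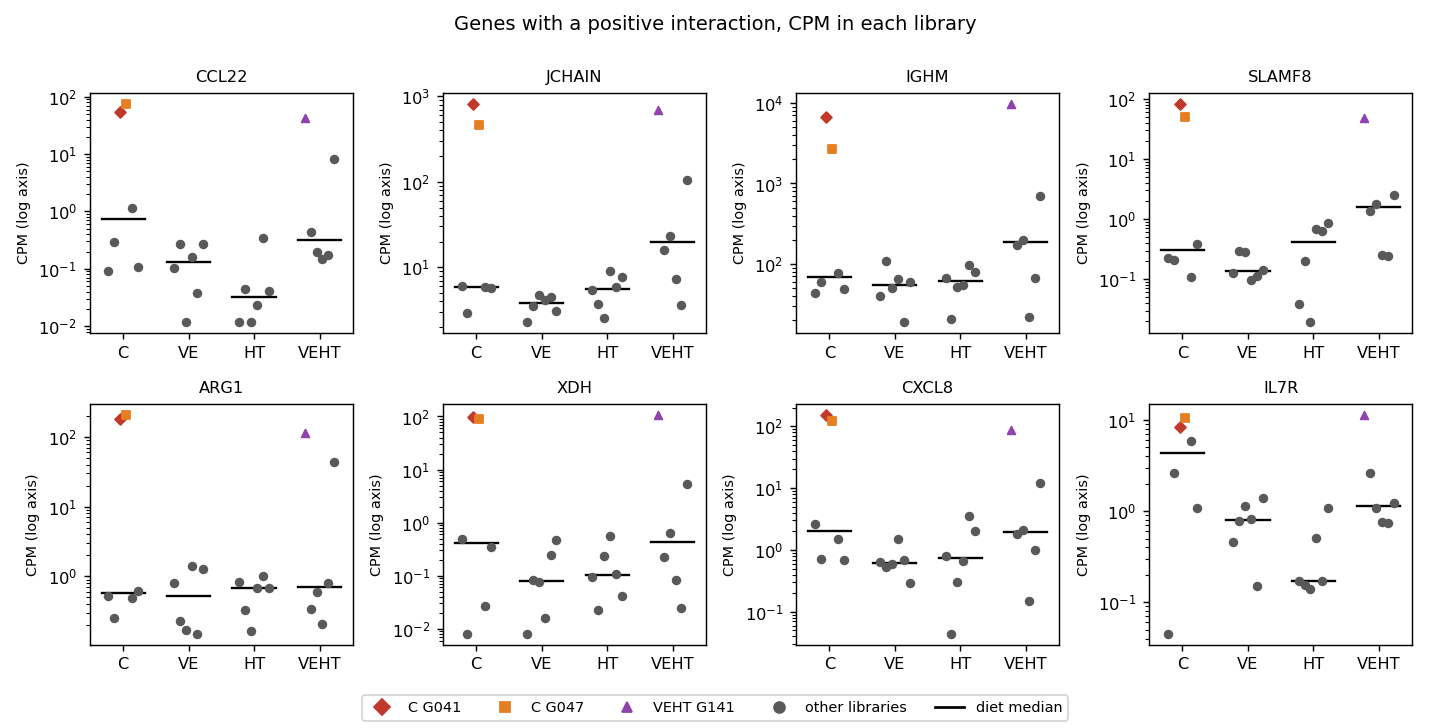
CPM of 8 genes with a positive interaction in each library by diet, on log axes, with a bar at the diet median and values of 0 drawn below the lowest value above 0. C G041, C G047 and VEHT G141 are the 3 highest libraries in all 8 panels.

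Secreted phospholipases and oxidant-producing enzymes were also among the positive genes. XDH, the xanthine dehydrogenase that can make superoxide and hydrogen peroxide, ran from 0 to 95.8 CPM in C (median 0.42), from 0 to 0.472 in VE (0.0796), from 0.0223 to 0.557 in HT (0.102) and from 0.0246 to 106 in VEHT (0.426), with a contrast of 14.63 ± 3.13 (edgeR q = 0.0362). Of the list with the NADPH oxidase subunits 8 of 13 members were called, all positive. GP91-PHOX (CYBB), the catalytic subunit of phagocytes, had 9.03 ± 2.13 (edgeR q = 0.0418) and NCF1, its cytosolic organizer, 7.73 ± 1.83 (edgeR q = 0.0427), whereas NOX4, an oxidase of cells other than phagocytes, read 0.13 ± 0.596 (edgeR q = 0.946). DUOX2, another oxidase of the list, was among the called members, with a contrast of 3.66 ± 1.1. Without the 3 libraries the contrasts were 2.92 for DUOX2, 1.90 for GP91-PHOX, 0.71 for NCF1 and 0.79 for NOX4. PLA2G5 and PLA2G2D, secreted phospholipases A2 whose genes lie 14.7 kb apart on chromosome 6, had contrasts of 10.20 ± 2.19 (edgeR q = 0.0362) and 13.92 ± 3.33 (edgeR q = 0.0446). Neither held its size without the 3 libraries (3.28 ± 1.46 and 3.12 ± 2.07). Among named positive genes counted in every diet, further large contrasts were those of the identifier that the study's lists name HPS5 (15.34 ± 3.36, edgeR q = 0.038) and TMEM215 (13.74 ± 3.14, edgeR q = 0.0391). TMEM215 was counted in G141 (8.61 CPM) and in none of the other 5 VEHT libraries, and its contrast was -0.50 ± 0.568 without the 3 libraries.

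T cell genes had a list median of 5.26, with 7 of 15 members called, and it was 0.825 without the 3 libraries. IL7R is the receptor through which naive and memory T cells receive interleukin 7. It ran from 0.0453 to 10.5 CPM in C (median 4.29) and from 0.151 to 1.38 in VE (0.799). In HT it ran from 0.14 to 1.09 (0.172) and in VEHT from 0.739 to 11.3 (1.14). The high C values were not confined to G041 and G047, since the highest of the other 4 C libraries read 5.93 CPM, above every VE and HT library. This was also so for CD40LG of the same list, at 0.272 CPM against at most 0.189 in VE and 0.227 in HT. The contrast of IL7R was 5.79 ± 1.29 (edgeR q = 0.038), 4.76 between diet medians and 3.34 ± 1.07 without the 3 libraries (unadjusted p = 0.00535, q = 0.995). LAG3, an inhibitory receptor of T cells, had 8.98 ± 1.90 (edgeR q = 0.0362) and CD28, their costimulatory receptor, 7.16 ± 1.78 (edgeR q = 0.0522). CCR7, which guides T cells and dendritic cells to lymph nodes, and its ligand CCL19 had 5.38 ± 1.23 (edgeR q = 0.0391) and 5.96 ± 1.32 (edgeR q = 0.038).

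Antigen presentation through MHC class II was the most completely called list, with 9 of 10 members positive and a median of 3.92. SLA-DMA and SLA-DMB, which load peptides, read 3.94 ± 0.971 (edgeR q = 0.0515) and 4.63 ± 1.17 (edgeR q = 0.0532), and CTSS, the protease that trims the invariant chain, 4.96 ± 1.21 (edgeR q = 0.05). Toll-like receptors (5 of 12 called, median 2.79), inflammatory cytokines (7 of 16, 3.85), B cells (2 of 9, 4.06), cytotoxic lymphocytes (2 of 10, 2.94) and complement (3 of 10, 1.20) had members called in the positive direction only. Interferon-stimulated genes had 1 of 13 called, IRF8 (5.69 ± 1.38, edgeR q = 0.0482), a factor that myeloid and B cells also need, and a median of -0.0874. Between diet medians the median contrast of this list was 1.32, against 0.01 over all genes tested. NF-kB subunits and inhibitors had 1 of 14 called, the kinase IKBKE (3.89 ± 1.09, edgeR q = 0.0713). Without the 3 libraries the medians of these lists ran from -0.195 to 0.686. The share called among all genes was 3.68% positive, and no direction is read from a list apart from these counts, since the lists were written with earlier results known.

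**Figure D3:**
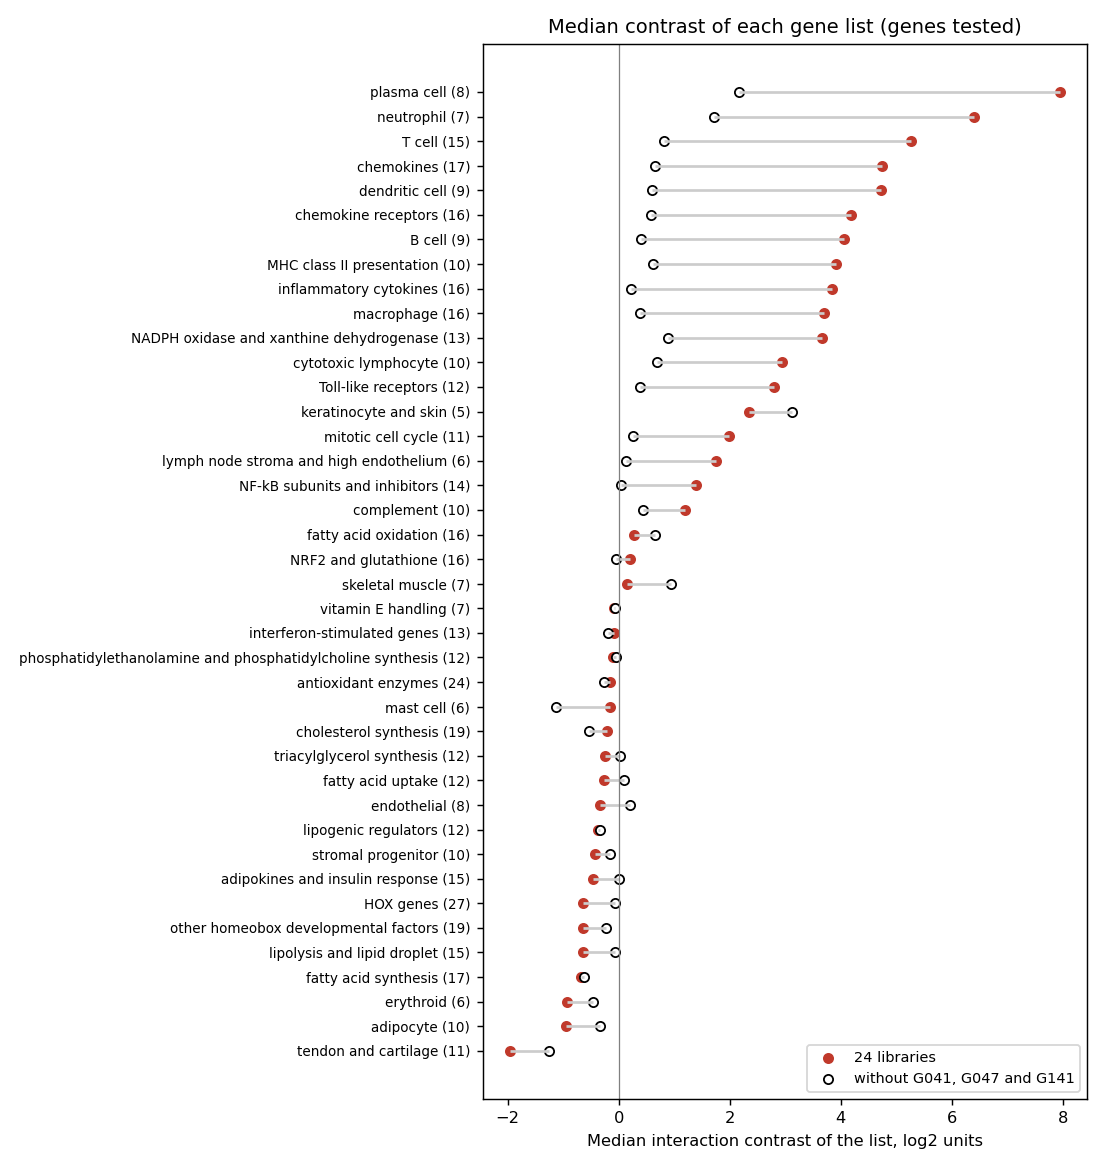
Median interaction contrast (log2 units) of 40 gene lists, with the number of members tested in brackets, over 24 libraries (filled) and over the 21 without C G041, C G047 and VEHT G141 (open). The plasma cell median moves from 7.95 to 2.16 and the macrophage median from 3.70 to 0.39, whereas that of fatty acid synthesis moves from -0.671 to -0.616.

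Without the 3 libraries the contrasts of the positive genes were smaller in all but 9. Their median was 0.848 over the 629 still tested, 604 of them kept a positive sign and 110 had an unadjusted p of at most 0.05. Of all genes tested on the 21 libraries, 2.08% were positive and 1.68% negative at that p, and nothing is read from the difference, since the same 21 libraries took part in choosing the genes. In 502 of the 648 genes (77.5%, 21.4% of all tested) at least 1 of the other 5 VEHT libraries was above all VE and HT libraries. In 481 (74.2%, 76% of all tested) the other 4 C libraries stayed at or below the highest VE or HT library. VEHT G208 was the fourth highest of the 24 libraries in 218 positive genes (33.6%, 3.66% of all tested), VEHT G162 in 130 and VEHT G148 in 89, whereas VEHT G164 and G173 were so in 2 and 3. The contrast of diet medians had a median of 1.48 in the positive genes and was above 0 in 642 of them (50.7% of all genes). These shares describe genes chosen for the same contrast on the same libraries and test nothing. In 10 positive genes every C library lay above every VE library (0.244% of all genes) and in 7 above every HT library (0.136%), while every VEHT library lay above every VE library in 3 (0.0511%) and above every HT library in 1 (0.0341%).

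The same 3 libraries were often the lowest among the 48 negative genes. In 24 of the 31 whose lowest library was untied it was G141 (12), G047 (9) or G041 (3). The share over all genes was not counted, and 2 low C libraries and 1 low VEHT library push the contrast downwards. Nothing is therefore read from this count. All 48 kept a negative contrast and an unadjusted p of at most 0.05 without the 3 libraries, with a median of -1.67, and all 48 were negative between diet medians (median -1.39), which describes genes chosen with these 21 libraries included and is no test. By edgeR 0 negative genes passed a q of 0.10 there (296 of all genes were negative at an unadjusted p of at most 0.05), and 0 passed it without G041, G047 or G141 singly. With the macrophage markers as a covariate the median was -1.52 and 47 had an unadjusted p of at most 0.05, and with the adipocyte markers -1.62 and 47. In 8 of the 48 every VE library lay above every C library (0.21% of all genes), in 4 every HT library above every C library (0.0852%), in 2 every VE library above every VEHT library (0.119%) and in 1 every HT library above every VEHT library (0.0852%). For 0 genes, positive or negative, did the C and VEHT libraries together lie apart from the VE and HT libraries.

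**Figure D4:**
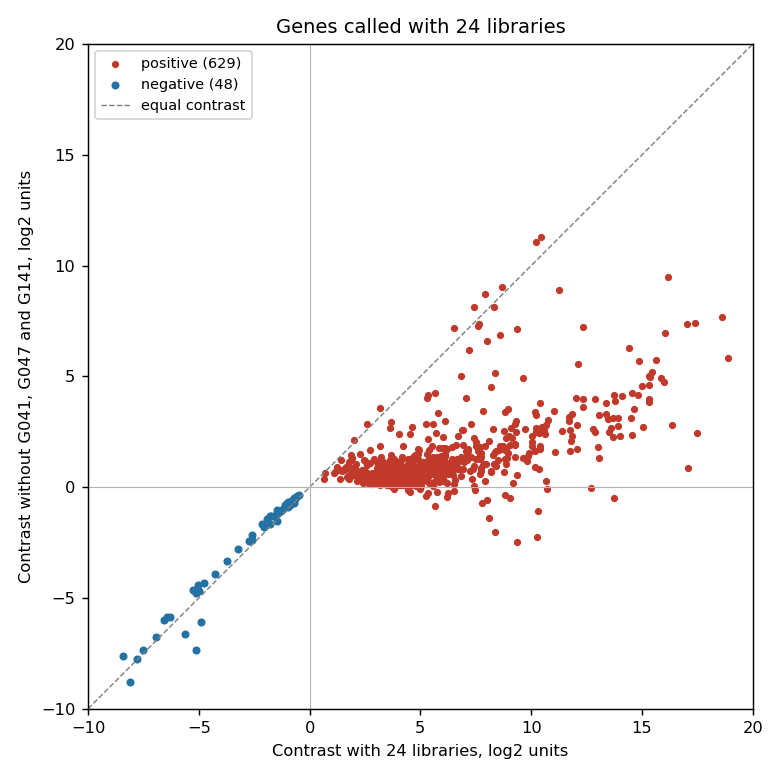
Contrast of the genes called over 24 libraries (horizontal axis) against their contrast without C G041, C G047 and VEHT G141 (vertical axis), both in log2 units, with the line of equal values dashed. The 48 negative genes lie near the line, at medians of -1.98 and -1.67, and the 629 positive genes still tested have a median of 0.848 on the vertical axis, with 9 of them above the line.

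PCYT2, the enzyme that makes CDP-ethanolamine for the membrane lipid phosphatidylethanolamine, had the smallest p of the lipid genes. Its values ran from 31.1 to 38.6 CPM in C (median 32.4), from 45.9 to 67.5 in VE (51.2), from 37.5 to 72.5 in HT (48.2) and from 32.2 to 56.3 in VEHT (43.4). All 6 VE piglets were above all 6 C piglets, only HT G196 lay within the C range among the HT piglets, and the lowest VEHT piglet was G141. The vitamin E effect was 0.72 ± 0.153 without hydroxytyrosol and -0.15 ± 0.152 with it, a contrast of -0.87 ± 0.216 (edgeR q = 0.0522), which read -0.80 ± 0.237 without the 3 libraries (unadjusted p = 0.00312). CHPT1, which completes the synthesis of phosphatidylcholine, had a contrast of -0.95 ± 0.288 (edgeR q = 0.0928). The other 10 members tested of the list of these 2 phospholipids were not called, and its median was -0.10.

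PCYT2 (ENSSSCG00000039650, chr12:1084416-1091031) lies 146.9 kb from FASN (chr12:922405-937560), which also had a negative interaction. The 250 bases before the RefSeq starts of PCYT2 and CCL22, the lipid and the immune gene with the smallest p, are shown for these opposite contrasts (Sscrofa11.1, chr12:1084166-1084415 and chr6:19296476-19296725, both on the plus strand). Capitals mark matches on either strand to CCAAT, the GC box GGGCGG and the E-box CACGTG, and TATAAA was searched as well and not found.
PCYT2: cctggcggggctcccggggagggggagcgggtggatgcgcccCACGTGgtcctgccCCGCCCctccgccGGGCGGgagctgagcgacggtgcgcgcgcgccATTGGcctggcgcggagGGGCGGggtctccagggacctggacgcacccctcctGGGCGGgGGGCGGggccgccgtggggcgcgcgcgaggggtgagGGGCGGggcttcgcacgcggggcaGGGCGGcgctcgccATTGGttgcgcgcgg
CCL22: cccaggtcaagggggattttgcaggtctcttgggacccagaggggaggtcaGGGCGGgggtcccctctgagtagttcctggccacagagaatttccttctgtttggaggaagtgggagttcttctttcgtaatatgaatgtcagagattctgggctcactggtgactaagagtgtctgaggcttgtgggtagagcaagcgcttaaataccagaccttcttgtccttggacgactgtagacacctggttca
Of 19556 such windows in the annotation 45.9% held GGGCGG, 31.9% CCAAT and 6.39% CACGTG. Among the 36 windows of negative genes and the 449 of positive genes that were matched by symbol, GGGCGG was in 58.3% and 36.3%, against 54.7% of the windows of the genes tested, CACGTG in 5.56% and 4.68%, against 7.18%, and CCAAT, which PCYT2 holds, in 19.4% and 33.6%, against 32%. In the same order TATAAA was in 13.9% and 9.35%, against 7.4%, and the NF-kB type in 5.56% and 3.12%, against 2.08%. The sterol regulatory element was in 0% and 0%, against 0.0238%. A match describes letters and not a bound factor.

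Fatty acid synthesis had 2 of 17 members called, both negative (background 0.273%), and 12 of 17 had a contrast below 0. ACACA, the acetyl-CoA carboxylase that makes the building block malonyl-CoA, ran from 35.8 to 76.2 CPM in C (median 57.5), from 73.9 to 233 in VE (86.8), from 49.6 to 106 in HT (79.5) and from 35.7 to 102 in VEHT (57.3). The diets overlapped, and VE G127 was the high VE library. Its contrast was -1.21 ± 0.354 (edgeR q = 0.0815), with 0.0165 as its unadjusted p without the 3 libraries. FASN, the synthase that joins those blocks into palmitate, had diet medians of 232, 379, 375 and 232 CPM for C, VE, HT and VEHT, and its highest libraries read 573, 2900, 1420 and 312. Here VE G127 (2900) and HT G189 (1420) were far above the rest of their diets. The contrast was -2.62 ± 0.805 (edgeR q = 0.0957) but -1.38 between diet medians and -1.68 without VE G127. SREBF1, the factor that switches on both genes, had a contrast of -1.18 ± 0.378 and missed the threshold (edgeR q = 0.114), with diet medians of 110, 251, 160 and 129 CPM in C, VE, HT and VEHT. Without the 3 libraries the list median was -0.616, close to the -0.671 of all 24, and 1 of 17 members was above 0.

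LPL, the lipase on the vessel wall that frees fatty acids from circulating lipoproteins and also hands vitamin E to tissues, ran from 301 to 1400 CPM in C (median 996), from 1550 to 2950 in VE (2110), from 965 to 2810 in HT (1410) and from 336 to 1750 in VEHT (1110). All VE piglets were above all C piglets, while HT and VEHT overlapped both. The contrast was -1.78 ± 0.53 (edgeR q = 0.0866), with G041 (301 CPM) and G141 (336) the lowest libraries, and -1.29 ± 0.456 without the 3 libraries (unadjusted p = 0.0102). LPL was the 1 called member of 12 tested for fatty acid uptake and of 7 for vitamin E handling. PIK3R1, the regulatory subunit of the kinase that relays insulin signals, ran from 81.4 to 151 CPM in C, from 165 to 251 in VE and up to 248 in HT, with a VEHT median of 159 and a VEHT low of 49.7. Both groups given 1 antioxidant lay wholly above C and overlapped VEHT, whose lowest value was G141. Its contrast was -1.05 ± 0.299 (edgeR q = 0.0751). JAZF1, a zinc finger protein that acts as a transcriptional cofactor, ran from 10.4 to 39.0 CPM in C and from 49.9 to 64.8 in VE and had a contrast of -1.49 ± 0.449 (edgeR q = 0.09).

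**Figure D5:**
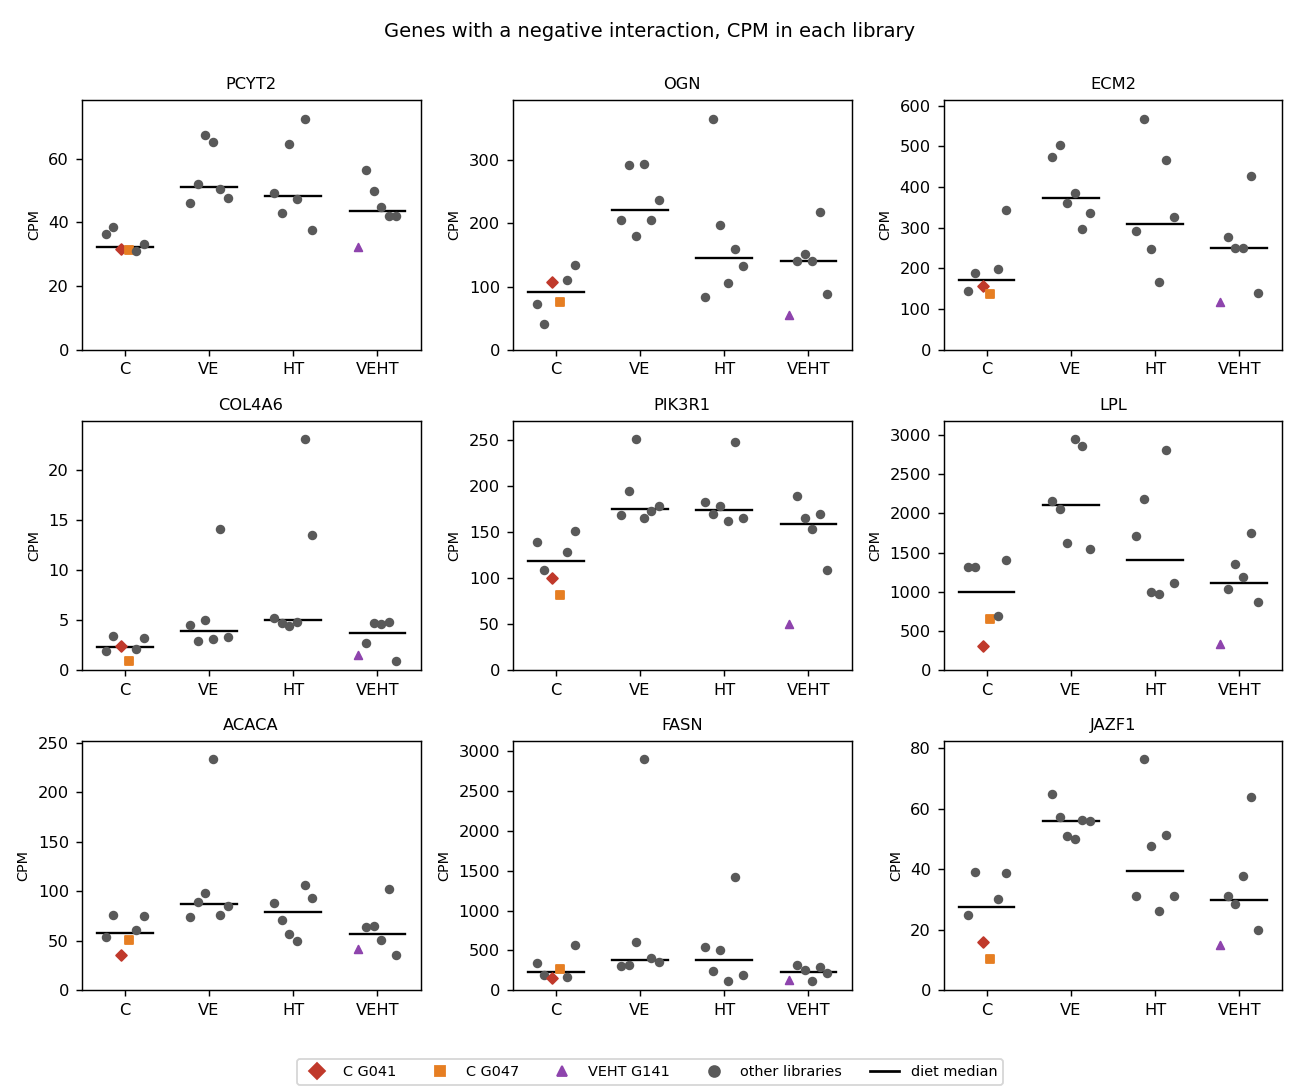
CPM of 9 genes with a negative interaction in each library by diet, on linear axes from 0, with a bar at the diet median. The 6 VE libraries lie above the 6 C libraries for PCYT2, OGN, PIK3R1, LPL and JAZF1, and G141 is the lowest VEHT library for PCYT2, OGN, ECM2, PIK3R1, LPL and JAZF1.

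Some matrix genes were among the negative genes, and no list of all matrix genes was counted. The matrix genes COL1A1, COL3A1, DCN and LUM were not called (edgeR q = 0.531, 0.504, 0.517 and 0.793). The stromal progenitor list that holds them had 0 of 10 called and 4 of 10 above 0. OGN, osteoglycin, a small leucine-rich proteoglycan, ran from 39.9 to 134 CPM in C (median 91.6), from 180 to 294 in VE (222), from 83.2 to 366 in HT (146) and from 55.0 to 218 in VEHT. VE and C did not overlap, and the contrast was -1.77 ± 0.468 (edgeR q = 0.0625) and -1.68 ± 0.497 without the 3 libraries. Its neighbour ECM2, a matrix protein whose gene lies 69.3 kb away on chromosome 3, had -1.50 ± 0.395 (edgeR q = 0.0613), with diet medians of 172, 373, 309 and 249 CPM in C, VE, HT and VEHT. COL4A6 and COL4A5 encode chains of basement membrane collagen and lie 207.9 kb apart on the X chromosome. COL4A6 read at most 3.43 CPM in C and 4.83 in VEHT and at least 4.42 in HT, with a high value of 14.1 in VE G179 and 23.1 in HT G189, and its contrast was -2.74 ± 0.722 (edgeR q = 0.0613). COL4A5 had -2.17 ± 0.628 (edgeR q = 0.078). None of the 11 tendon and cartilage markers was called by edgeR. All 11 had a contrast below 0, with a median of -1.95 (-1.26 without the 3 libraries), against 0.0233 over all genes tested. DESeq2 called 5 of them negative, against 0.761% of all genes. The summed level of the 11 markers had diet medians of 986, 1540, 1210 and 780 CPM in C, VE, HT and VEHT, and its part in the matrix genes was not tested.

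The other negative genes with well measured levels belong to several processes. RNF180, a membrane-bound ubiquitin ligase, had medians of 1.10, 2.62, 2.69 and 1.77 CPM in C, VE, HT and VEHT and a contrast of -1.72 ± 0.433 (edgeR q = 0.0532). All 6 HT libraries lay above all 6 C libraries. PTN, the growth factor pleiotrophin (-1.91 ± 0.535, edgeR q = 0.0707), WNT5B, a Wnt ligand (-1.59 ± 0.465, edgeR q = 0.0812), and DVL2, which relays Wnt signals (-0.64 ± 0.198, edgeR q = 0.0982), had their highest diet medians in HT, VE and HT. CYP2A19, a cytochrome P450, had medians of 4.43, 32.4, 17.9 and 13.7 CPM and a contrast of -3.72 ± 1.06 (edgeR q = 0.0737). Contrasts under 1 in size were found for TAF1B, a subunit of the RNA polymerase I machinery (-0.72 ± 0.193, edgeR q = 0.0643), LRRC58 (-0.99 ± 0.28, edgeR q = 0.0713), KCTD3 (-0.47 ± 0.134, edgeR q = 0.0739), IFT57, of the transport system in cilia (-0.83 ± 0.239, edgeR q = 0.0777), C15orf40, MACO1, CABLES1 and USE1. CAMK1, a calmodulin-dependent kinase, IKBIP, a partner of the IKK kinase, MPP2, a scaffold protein, LZTS3 and RAB6B completed the named genes above 0.1 CPM in every diet mean. G141 was the lowest of all VEHT libraries for TAF1B, LRRC58, IKBIP, KCTD3, PIK3R1, IFT57 and C15orf40, so their VEHT means rested partly on it, and their contrasts without the 3 libraries ran from -0.35 (KCTD3) to -1.06 (IKBIP).

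Several negative contrasts of the largest size came from genes near the limit of counting. EN2, a homeobox factor, had the smallest p of the named negative genes with a contrast of -6.42 ± 1.56 (edgeR q = 0.0482, no adjusted p from DESeq2), but never exceeded 0.129 CPM in any library, and 5 of 6 libraries were at 0 in C and in VEHT. CDH7, a cadherin (-6.58 ± 1.83, edgeR q = 0.0707), had 5 of 6 at 0 in the same diets. NPTX2, a neuronal pentraxin (-4.25 ± 1.17, edgeR q = 0.0691), CFAP206 and CIMAP1C, proteins of cilia and flagella, and CHGA, a secretory granule protein, were likewise below 1 CPM in every diet median. HOXA10, a factor of posterior body identity, had the largest negative contrast (-8.41 ± 2.52, edgeR q = 0.0874), yet 5 of 6 HT libraries were at 0 and the remaining one, G066, read 2.34 CPM; with that library left out the contrast was -1.25. HOXC10 had no count in VEHT and PNLIPRP1 and SLC27A5 none in C, so their fitted contrasts have no bound, and their highest libraries read 0.398, 0.171 and 0.232 CPM. The other 25 HOX genes tested were not called. Of the unnamed negative identifiers the smallest p belonged to ENSSSCG00000034894 (-2.05 ± 0.531, edgeR q = 0.0576) and ENSSSCG00000039921 (-3.25 ± 0.843, edgeR q = 0.0576).

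Genes through which cells answer oxidants had 0 calls by edgeR and 5 by DESeq2, against 3.95% and 7.13% of all genes tested. With lists of 24 and 16 genes, nothing is read from these counts. None of the 24 antioxidant enzymes tested and none of the 16 genes of the NRF2 and glutathione list passed edgeR's q of 0.10, with medians of -0.158 and 0.203. DESeq2 called 2 antioxidant enzymes in each direction and 1 positive gene of the other list. PON3, a paraoxonase carried on lipoproteins, had the smallest p of the enzymes and ran from 6.02 to 39.5 CPM in C and from 61.7 to 130 in VE (-2.17 ± 0.76, edgeR q = 0.155). GPX4, the peroxidase that reduces lipid hydroperoxides in membranes, had medians of 219, 391, 342 and 294 CPM in C, VE, HT and VEHT (-0.78 ± 0.283, edgeR q = 0.173). GSR, glutathione reductase, read 1.63 ± 0.588 (edgeR q = 0.171) with its highest values in G047 and G141, and 0.09 ± 0.253 without the 3 libraries.

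Calls in the other metabolic lists stand beside 3.68% positive and 0.273% negative of all genes by edgeR, and 0.761% negative by DESeq2. Nothing is read from such small counts. Triacylglycerol synthesis (12 tested), lipogenic regulators (12), lipolysis and lipid droplet (15) and cholesterol synthesis (19) had 0 called by edgeR, and DESeq2 called 1, 1, 0 and 1 negative. Cholesterol synthesis moved when the 3 libraries were left out, from a median of -0.216 with 7 of 19 members above 0 to -0.538 with 1 of 19 above 0 and 8 at an unadjusted p of at most 0.05. Of 16 genes of fatty acid oxidation UCP2, a mitochondrial carrier that leukocytes also express, was called positive (3.20 ± 0.985, edgeR q = 0.0964, 0.30 ± 0.528 without the 3 libraries). Of 15 adipokine and insulin genes RETN, resistin, an adipocyte product in mice and a macrophage product in humans, was positive (8.93 ± 2.47, edgeR q = 0.0691) beside the negative PIK3R1. The 10 adipocyte markers had 0 called and a median of -0.945 (-0.339 without the 3 libraries).

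On the 21 libraries left without G041, G047 and G141, DESeq2 called 3 genes (0.017% of 17620). DSG3, a desmoglein of skin and other squamous epithelia, had a contrast of 8.74 ± 1.83 in edgeR's fit of the 21 libraries (DESeq2 q = 0.0123) and 7.93 ± 1.97 in that of all 24 (edgeR q = 0.0522). It read 4.35 CPM in C G025 against at most 0.218 in the other C libraries, and its VEHT maximum was 0.871 (G162), while no VE or HT library exceeded 0.0936. Its neighbour DSG1 (10.22 ± 3.00 over all 24, edgeR q = 0.0816) read 18.8 CPM in C G025 and 3.79 in VEHT G162. CRYBB2, a lens crystallin gene counted in 1 C library (G025, 1.77 CPM), was the other positive gene and had no count in HT. The keratinocyte and skin markers summed to 39.5 CPM in C G025, which with VEHT G162 (the highest of the 24) and VE G179 (46.5) was among the 3 highest libraries. DSG1 and DSG3 are themselves on that list and supplied much of the G025 sum. With the skin markers as a covariate their contrasts were 2.52 ± 2.00 (edgeR q = 0.462) and 2.80 ± 1.40 (edgeR q = 0.245), and without the 3 libraries highest in skin markers 4.34 ± 2.26 (edgeR q = 0.379) and 3.72 ± 1.55 (edgeR q = 0.246). WBP4, a splicing factor, was the negative gene: its medians were 12.4, 12.1, 12.5 and 9.73 CPM in C, VE, HT and VEHT, with a contrast of -0.52 ± 0.14 on the 21 libraries (DESeq2 q = 0.0662) but -0.35 ± 0.169 on all 24 (edgeR q = 0.346).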

How the data were processed

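RNA of subcutaneous back fat of 24 piglets was sequenced as paired reads. Per the labels and methods the authors trimmed reads with Trim Galore, mapped them to Sscrofa11.1 with HISAT2 and counted genes with HTSeq; the deposited values are raw counts per Ensembl gene and piglet, and versions, annotation release and strand setting are not given in the sources used here. Without a known strand setting, antisense or overlapping genes may share reads. Entries that name no gene held 17.9% to 25% of each column and were left out. Columns carry animal numbers and the diet, so piglets were placed by diet alone. Names came from the reference table for 14857 identifiers and from the identifier and name columns of the study's lists for 43. The contrast was fitted with edgeR 4.0.16 (R 4.3.3; TMM, quasi-likelihood F test, group means) after genes at 0 in 75% or more of the libraries (18 or more) were dropped, with Benjamini-Hochberg q. CPM are gene counts scaled to a library total of 1000000; SE is the size of the contrast divided by the square root of F. Contrasts of diet medians used log2 CPM with a prior count of 2. DESeq2 1.42.0, limma 3.58.1, other filters and scalings, marker covariates and left-out libraries were alternatives; the skin marker alternatives were chosen after seeing the data. Named genes followed a rule: smallest p and largest contrast of the positive genes, all named negative genes, called list members and genes called without the 3 libraries. The genes, lists and rules were chosen with earlier results of these data known. The fit was tested on simulated data. Promoters were read from RefSeq, Sscrofa11.1.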

Additional observations from a re-analysis of the deposited data

Results flagged for a closer look

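The vitamin E effect differed between the 2 hydroxytyrosol levels in 696 genes by the test of the difference itself, the contrast reported above. Chance flags about 1 in 20 groups of normal values in Dixon's gap check, whereas the genes here were chosen from these data. The check covered 54 named genes in 4 diets, or 216 groups of 6 log2 CPM values. In 22 groups a library's gap to its neighbour exceeded Dixon's critical share of the range for 6 samples. VEHT G141 was the lone library in 8 of them: it was highest for TMEM215 (gap 1 of the range, since the other 5 libraries were at 0) and lowest for IFT57 (0.783), LRRC58 (0.742), PIK3R1 (0.677), C15orf40 (0.644), TAF1B (0.643), IKBIP (0.642) and KCTD3 (0.632). VE G127 was highest for ACACA (0.69) and FASN (0.664). VE G085 was lowest for CYP2A19 (0.663) and highest for RAB6B (0.678), and VE G179 highest for COL4A6 (0.671). C G206 was highest for ECM2 (0.679) and for CDH7 (1), C G117 for EN2 (1), and C G025 for CHGA (0.733) and DSG3 (0.696). VEHT G208 was highest for EN2 (1), VEHT G164 for CDH7 (1), HT G189 for CCL22 (0.644) and HT G066 for HOXA10 (1). A gap of the whole range means that the other 5 libraries were at 0. The check cannot show 2 high libraries of the same diet, such as C G041 and G047 for CCL22 (54.8 and 75.2 CPM).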

How the results depend on the processing

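The counts of 696 genes called, 648 positive and 48 negative, stayed within 1.5 times with RLE size factors (648 and 49), robust dispersion (640 and 47), no filter (657 and 46) and filterByExpr (519 and 32). They changed with DESeq2 (1255, 1121 and 134), limma voom (0, 0 and 0), a q of 0.05 (166, 165 and 1), without G041, G047 and G141 (0, 0 and 0; DESeq2 3, 2 and 1), with the covariates of skeletal muscle (0, 0 and 0; 2608 at an unadjusted p of at most 0.05, smallest q = 0.113), macrophage (0, 0 and 0) and adipocyte markers (0, 0 and 0) and with the keratinocyte and skin covariate (1720, 1471 and 249). Without the 3 libraries highest in skin markers 645 genes were called, 618 positive and 27 negative. With 1 library left out the counts ran from 0 to 1095 called, 0 to 1001 positive and 0 to 99 negative. The cause of these changes was not tested. Of 114 named genes, 19 changed sign under an alternative. Without the 3 libraries TMEM215 read -0.50, and LPIN2 -0.01 with DESeq2. With the macrophage covariate CCL17 read -0.41, TLR2 -0.04, NCF1 -0.29, CFP -0.06, LPIN2 -0.13, UCP2 -0.29, GSR -0.09 and HMOX1 -0.09. With the adipocyte covariate MZB1 read -0.04, ARG1 -0.09, PLA2G2D -1.41, POU2AF1 -0.03, CD40LG -0.46, TREM1 -0.40, S100A8 -0.60, CCR3 -0.11, NCF1 -0.85, GSR 0.00, RETN -0.66 and FUT7 -0.22. No paired analysis was possible because the columns carry animal numbers and not the replicate numbers of the labels, so the replicate block was not run. Depth limits genes under about 0.1 CPM, which rest on a handful of reads.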
